A study of Homo sapiens with 15 samples.

Results

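Knockdown of METTL14 was compared with a non-targeting siRNA in fibroblasts driven into senescence by the oncogene RAS. The comparison takes 6 of the study's 15 libraries, the 3 RAS libraries with siMETTL14 and a lentiviral vector (knockdown) and the 3 RAS libraries with siControl, chosen by the names of their columns in the counts table. All cells were IMR90, human fetal lung fibroblasts. Both groups carried a RAS retrovirus. The first siRNA was given 4 days after the retrovirus, a second one on the day after, together with the lentivirus, and RNA was taken 48 hours later. A further group of 3 libraries, control, carried an empty retrovirus and siControl. It enters the model, and in the text it serves only to place levels. The remaining groups of 3 libraries, in which METTL14 was added back, also enter the model but are not described. The genotype labels speak of a knockout, but the treatment text describes an siRNA, and the siRNA is what is described here. The column name of the siControl RAS group does not mention a vector, so the effect of the siRNA and that of lentiviral infection cannot be told apart in this comparison. Neither the RAS isoform nor the siRNA sequence is given in the sources used here. Nothing there tells whether libraries of 1 group stem from separate cultures, and the spread behind each p-value may therefore be technical.

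METTL14 is the RNA-binding partner of METTL3, the enzyme that places N6-methyladenosine (m6A) on messenger RNA, a mark that reader proteins use to change the splicing, decay or translation of a transcript. Cells that become senescent leave the cell cycle for good while they stay metabolically active. Their secretome (the senescence-associated secretory phenotype) holds cytokines, chemokines, proteases and growth factors, and NF-kB, C/EBP and AP-1 factors drive part of it.

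Levels are CPM, counts scaled to a common library size by TMM factors, from 3′ end libraries that give about 1 tag per transcript whatever its length. The 6 libraries held between 4917661 and 7763084 counts, so that 1 count stood for 0.129 to 0.203 CPM. Each of 13516 tested genes got a two-sided p from edgeR's quasi-likelihood fit, adjusted over all of them by the method of Benjamini and Hochberg, and is called where that value lies below 0.05. Changes are log2 ratios of knockdown over siControl with the standard error (SE) of the fit, and n is 3 libraries a group throughout. Where 1 left-out library moved a count of called genes by over 1.5 times, the count without that library follows in brackets. Genes named as examples of a list or beside the lists were in part picked with their values known. The 100 most abundant genes held 25.5% to 25.6% of the counts of siControl and 23.0% to 23.2% of those of knockdown libraries. On the first principal component of the 6 libraries, with 36.2% of the variance, siControl libraries lay between -35.6 and -32.8 and knockdown libraries between 26.5 and 46.9. Replicate 1 of the knockdown stood apart on the second component, with 18.5% of the variance, at 44.5 against -26.7 and -30.8 for the other knockdown libraries. The third component, with 16.6% of the variance, spread the siControl libraries, which lay at -33.3, -9.69 and 45.7.

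METTL14 (ENSG00000145388) checks the labels. It had 26.2, 19.3 and 20.5 CPM in the siControl libraries and 9.35, 4.94 and 3.94 CPM in the knockdown libraries. The groups did not overlap, and replicate 1 kept the highest level of the knockdown libraries. METTL14 fell by 1.91 ± 0.21 (SE) on the log2 scale (adjusted p = 5.49e-06), a 3.77-fold lower level. METTL3 (ENSG00000165819), the catalytic partner, had 8.31, 19.5 and 9.27 CPM in siControl and 15.8, 15.3 and 10.8 CPM in knockdown libraries. These ranges overlapped and METTL3 was not called, with a change of 0.19 ± 0.28 (adjusted p = 0.746). METTL14 was the only called gene among 12 tested members of the m6A writer complex, with WTAP, the subunit that holds the complex in nuclear speckles, at 256 to 263 CPM. Among 18 erasers and readers of m6A, 1 gene was called, EIF3A, a translation initiation subunit that can bind m6A, from 620.0 to 794 CPM (change 0.36 ± 0.06, adjusted p = 5.89e-05).

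The response was broad and, with TMM factors, nearly balanced in the number of genes. Of 13516 tested genes 2100 were called (15.5%), 1010 higher (7.47%) and 1090 lower (8.06%) in knockdown cells. The counts of every gene list below are to be read beside these shares. By size the response leaned towards falls, with 325 genes called and at least 2-fold lower (2.40%) against 188 at least 2-fold higher (1.39%), and 29 against 21 at 8-fold. The median change over all tested genes was -0.0028 and the middle part of the distribution, between its quartiles, ran from -0.29 to 0.26. TMM factors take most genes as unchanged, so a shift shared by most genes could not be seen. With upper-quartile factors 1168 genes were called higher and 970 lower. The 3 knockdown libraries lay wholly on one side of the 3 siControl libraries for 4053 genes (30.0%), among them 2026 of the called ones.

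Among the most abundant transcripts calls were equal in number and falls larger. Of 2148 genes with a mean of at least 100 CPM, 38.0% were called, 408 higher and 408 lower, and 61 of them fell at least 2-fold while 4 rose as much. Of 4478 genes between 1 and 10 CPM, 4.94% were called. The genes called lower held 29.6% to 30.4% of all normalised counts in siControl and 19.2% to 19.5% in knockdown libraries. The genes called higher held 15.9% to 16.0% and 20.9% to 21.6%.

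**Figure D1:**
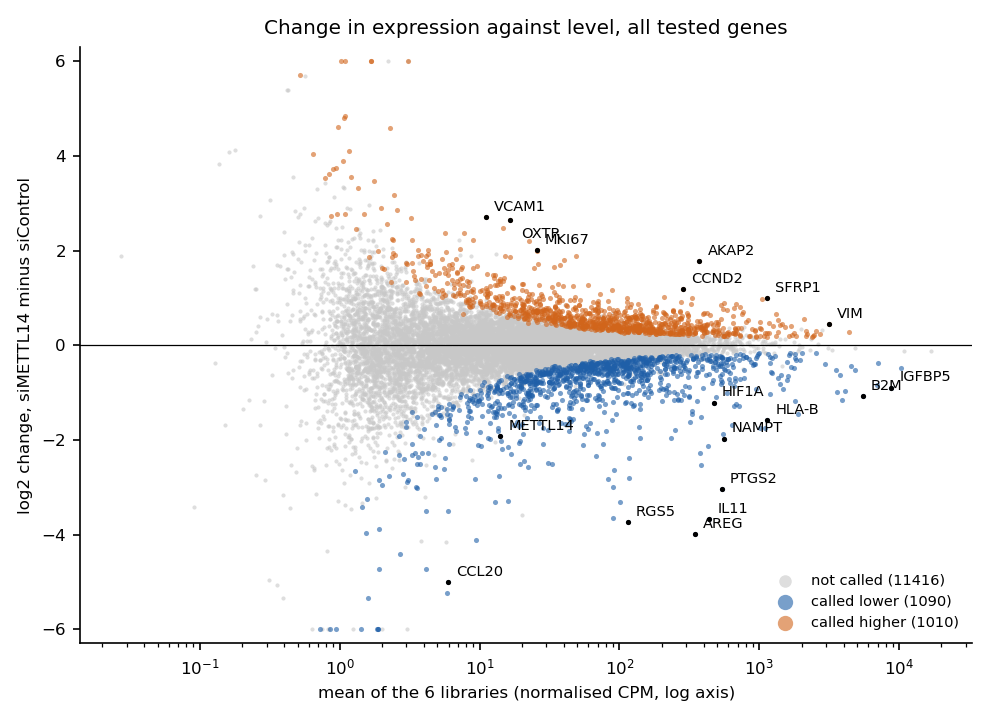
Log2 change of every tested gene (vertical axis, knockdown over siControl) against its mean over the 6 libraries (horizontal log axis, CPM); each point is a gene, blue where called lower (1090), orange where called higher (1010), grey where not called, and 20 genes beyond 6 are drawn at the limit. AREG, IL11, PTGS2 and RGS5 lie far below the cloud at mean levels above 100 CPM, where no gene rose as far.

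The 15 largest falls among genes above 10 CPM were in PI3, CCL20, MMP10, AREG, RGS5, IL11, NR4A2, IL24, CFB, SMOC1, BST2, PTGS2, CSF3, MT3 and CXCL6. Most of them encode secreted proteins: cytokines (IL11, IL24, CSF3), chemokines (CCL20, CXCL6), a growth factor (AREG), a protease (MMP10), a protease inhibitor (PI3), complement factor B (CFB) and a matrix protein (SMOC1). AREG, a ligand of the EGF receptor, had 641, 638 and 676 CPM in siControl and 34.3, 43.2 and 44.8 CPM in knockdown libraries. Every knockdown library was far below every siControl library, and AREG fell by 3.99 ± 0.15 (SE) on the log2 scale (adjusted p = 9.83e-13). IL11, a cytokine of the IL6 family, had 860.1, 765 and 807 CPM and 65.0, 62.3 and 64.0 CPM. IL11 stood below its mean of 116 CPM in control libraries as well, and fell by 3.67 ± 0.09 (SE) on the log2 scale (adjusted p = 1.97e-25).

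CXCL6, which attracts neutrophils, had 162, 147 and 127 CPM in siControl and 19.5, 16.2 and 25.6 CPM in knockdown libraries, and fell by 2.83 ± 0.17 (SE) on the log2 scale (adjusted p = 8.66e-15). CCL20, which attracts lymphocytes and dendritic cells, had 10.2, 13.5 and 10.9 CPM and 0, 0.463 and 0.492 CPM. CCL20 had 6 counts in all knockdown libraries together, and fell by 5.01 ± 0.77 (SE) on the log2 scale (adjusted p = 7.47e-06). NR4A2, an early response nuclear receptor, fell by 3.65 ± 0.19 (SE) on the log2 scale (adjusted p = 1.16e-15), from 191, 149 and 156 CPM to 10.8, 16.2 and 12.1 CPM. RGS5, which shortens signalling of G protein-coupled receptors, had 212, 232 and 194 CPM and 16.7, 18.2 and 12.8 CPM, with no overlap, and fell by 3.74 ± 0.15 (SE) on the log2 scale (adjusted p = 1.67e-19). PTGS2, the inducible cyclooxygenase, had 925, 999 and 948 CPM and 119.7, 102 and 129 CPM, and fell by 3.04 ± 0.09 (SE) on the log2 scale (adjusted p = 3.02e-24).

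The stretches just upstream of 4 of these strongly lowered genes are shown because they hold short motifs of factors known to act on cytokine genes. Each is the 150 bases before the RefSeq start, 5′ to 3′ on the gene's strand, from GRCh38.p14: AREG at chr4:74444986-74445135, plus strand, IL11 at chr19:55370464-55370613, minus strand, CXCL6 at chr4:73836528-73836677, plus strand and CCL20 at chr2:227813692-227813841, plus strand. Capitals mark a cAMP response element (TGACGTCA) in AREG, an AP-1 motif (TGANTCA) in IL11, the NF-kB motif, given by name only, in CXCL6 and CCL20, and a CCAAT box in CCL20. The same stretches of PTGS2 and CFB, which also fell, held none of these motifs. That of VCAM1, which rose, held the NF-kB motif. The start used in these cells was not measured.
AREG: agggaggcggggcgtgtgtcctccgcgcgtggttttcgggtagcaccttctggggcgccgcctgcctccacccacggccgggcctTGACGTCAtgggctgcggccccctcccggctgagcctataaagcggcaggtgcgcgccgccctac
IL11: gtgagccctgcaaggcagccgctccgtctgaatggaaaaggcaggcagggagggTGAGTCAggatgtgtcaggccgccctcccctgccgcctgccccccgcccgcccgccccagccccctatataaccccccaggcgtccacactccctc
CXCL6: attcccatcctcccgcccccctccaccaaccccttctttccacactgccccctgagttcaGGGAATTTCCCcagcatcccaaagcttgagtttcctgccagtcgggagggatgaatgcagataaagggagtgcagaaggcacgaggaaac
CCL20: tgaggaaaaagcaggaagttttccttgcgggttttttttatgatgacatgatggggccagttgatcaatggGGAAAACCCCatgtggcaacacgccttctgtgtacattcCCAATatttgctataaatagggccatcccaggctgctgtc

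Motifs were searched on both strands in the whole window of 300 bases, 250 before and 50 after the start, for the 7111 tested genes with a single start in the table. The NF-kB motif was in 6.36% of all these promoters, in 29 of 163 (17.8%) of genes that fell at least 2-fold and in 7 of 97 (7.22%) of genes that rose as much. The AP-1 motif was in 4.20%, 11 of 163 (6.75%) and 2 of 97 (2.06%). The cAMP response element, a motif added after the values were seen, was in 3.75%, 8 of 163 (4.91%) and 4 of 97 (4.12%). A match is a string of letters in a window and was not tested as a binding site.

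**Figure D2:**
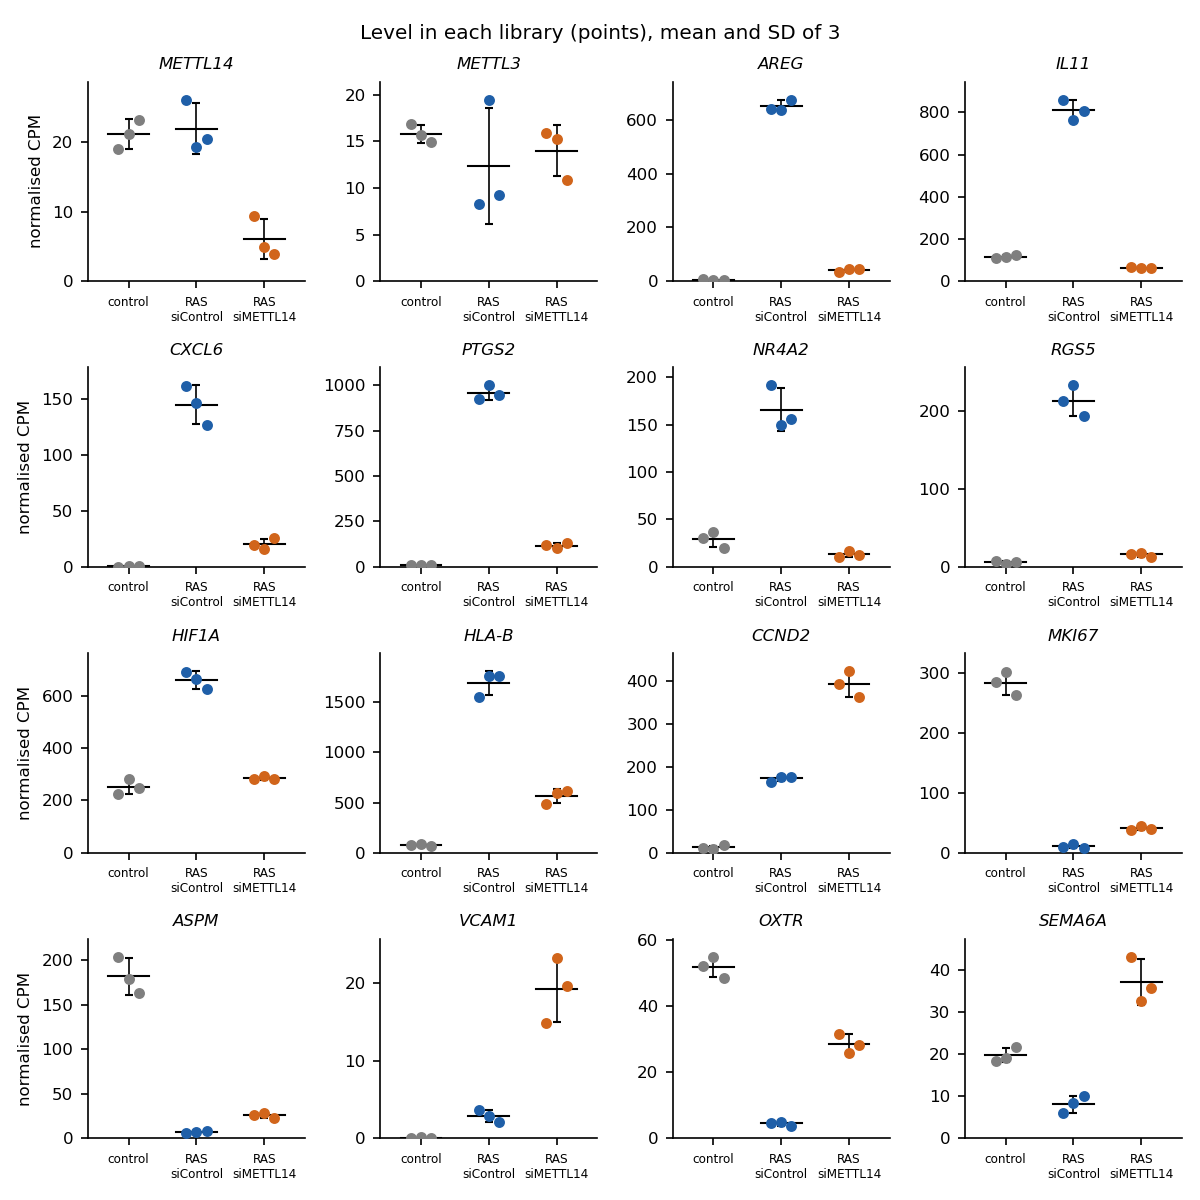
Normalised CPM (vertical axis from 0) of 16 genes in control, RAS siControl and RAS siMETTL14 libraries; points are libraries, horizontal bars the mean of 3 and whiskers the SD. METTL14 and the 8 genes from AREG to HLA-B other than METTL3 were lower in every knockdown library than in every siControl library, the 6 genes from CCND2 to SEMA6A were higher in every one, and METTL3 overlapped.

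Ligands of the EGF receptor family fell beside AREG. EREG, another ligand of that receptor, had 222, 244 and 207 CPM in siControl and 61.6, 46.8 and 64.3 CPM in knockdown libraries and fell by 1.97 ± 0.13 (SE) on the log2 scale (adjusted p = 1.21e-13). NRG1, a ligand of the related receptors ERBB3 and ERBB4, fell by 1.16 ± 0.08 (SE) on the log2 scale (adjusted p = 1.16e-13), and ERRFI1, an inhibitor of the receptor inside the cell, fell by 1.07 ± 0.08 (SE) on the log2 scale (adjusted p = 5.48e-13). All 3 were lower in every knockdown library. Of 8 tested ligands and receptors of the family 4 fell and 2 (0 without siControl replicate 3, 1 without siControl replicate 1 or knockdown replicate 1 or 3) rose, with a median of -0.58.

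The summed levels of the IL1 family and of chemokines were lower in knockdown than in siControl libraries and above control. Of 9 tested members of the IL1 family 4 fell and 0 rose (median -0.92), and their summed level went from 1016 CPM in siControl to 299 CPM in knockdown, against 54.7 CPM in control libraries. IL1A, which acts at the cell surface, had 133, 129 and 109 CPM and 29.9, 36.0 and 40.1 CPM. Its receptor IL1R1 fell by 1.24 ± 0.13 (SE) on the log2 scale (adjusted p = 3.35e-09). Of 14 tested chemokines and receptors 8 fell and 0 (1 without siControl replicate 1) rose (median -1.70), with sums of 3629.7, 1061 and 75.2 CPM. CXCL1, CXCL2 and CXCL3 are close relatives whose tags may be split between them. CCL2, which attracts monocytes, was not called: it had 93.4, 117 and 92.3 CPM in siControl and 75.4, 157 and 136 CPM in knockdown libraries, which overlapped, a change of 0.29 ± 0.31 (adjusted p = 0.631).

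In the IL6 family 3 members fell and 2 rose of 15 tested (median -0.05): the ligands IL6 and IL11 and the feedback inhibitor SOCS3 fell, and the receptors LIFR and IL6ST rose. IL6 itself had 54.9, 66.9 and 47.9 CPM and 5.28, 11.4 and 12.6 CPM and fell by 2.51 ± 0.29 (SE) on the log2 scale (adjusted p = 6.27e-08). LIFR, the receptor of leukaemia inhibitory factor, had 27.5, 15.7 and 15.3 CPM in siControl and 44.3, 48.5 and 45.3 CPM in knockdown libraries, with no overlap, and rose by 1.22 ± 0.19 (SE) on the log2 scale (adjusted p = 1.18e-05). The shared receptor chain IL6ST rose by 0.34 ± 0.08 (SE) on the log2 scale (adjusted p = 0.00396). CSF3, the granulocyte growth factor, had 153, 155 and 173 CPM and 21.7, 19.0 and 19.9 CPM and fell by 2.99 ± 0.15 (SE) on the log2 scale (adjusted p = 6.2e-17).

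Many protease and inhibitor genes fell. Of 19 tested metalloproteinases and inhibitors 9 fell and 2 rose (median -0.50). MMP3, which cleaves matrix proteins and activates other proteases, had 605, 561 and 704 CPM and 126, 112 and 146 CPM, and fell by 2.28 ± 0.20 (SE) on the log2 scale (adjusted p = 9.21e-06). MMP10, a close relative of MMP3, fell by 4.13 ± 0.55 (SE) on the log2 scale (adjusted p = 7.19e-07), and the collagenase MMP1 fell less, from 1241 to 649 CPM (-0.94 ± 0.06, adjusted p = 1.01e-13). Of 15 tested genes in the list of plasminogen activators and serpins 7 fell and 0 (1 without knockdown replicate 1) rose. PI3, a protease inhibitor in the list that is not a serpin, was among those that fell. SERPINE2, an inhibitor of thrombin and plasminogen activators, had 1595, 1605 and 1442 CPM in siControl and 431, 480.1 and 459 CPM in knockdown libraries. It went below its control mean of 836 CPM, and fell by 1.76 ± 0.06 (SE) on the log2 scale (adjusted p = 2.74e-21). SERPINB2, an inhibitor of the same activators, fell by 2.08 ± 0.21 (SE) on the log2 scale (adjusted p = 4.4e-07), and the tissue plasminogen activator PLAT fell from 1474 to 979 CPM.

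Of 14 tested genes of prostaglandin synthesis and receptors, PTGS2 included, 5 fell and 0 rose (median -0.77). PTGS1, the constitutive cyclooxygenase, fell by 0.66 ± 0.10 (SE) on the log2 scale (adjusted p = 9.05e-06), and PTGER4, a receptor of prostaglandin E2, fell by 1.26 ± 0.22 (SE) on the log2 scale (adjusted p = 3.95e-05). All knockdown libraries were below all siControl libraries for both.

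Among 23 TGF-beta, activin and BMP ligands and binding proteins 8 fell and 1 (2 without siControl replicate 3 or knockdown replicate 1) rose. INHBA, the activin A subunit, had 2519, 2521 and 2468 CPM in siControl and 1001, 1193 and 1098 CPM in knockdown libraries and fell by 1.19 ± 0.06 (SE) on the log2 scale (adjusted p = 1.78e-17). The activin antagonist FST fell by 1.72 ± 0.13 (SE) on the log2 scale (adjusted p = 2.33e-09) and the BMP antagonist GREM1 fell by 1.80 ± 0.08 (SE) on the log2 scale (adjusted p = 2.6e-19). TGFB2 was the member that rose, from 140.0 to 191 CPM. The type 1 receptor TGFBR1, which is outside the list, had 119, 152 and 128 CPM and 45.1, 51.1 and 37.1 CPM and fell by 1.58 ± 0.13 (SE) on the log2 scale (adjusted p = 1.69e-11).

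Of 15 tested genes of the insulin-like growth factor axis 8 fell and 1 rose, and their summed level went from 24626 to 14789.9 CPM, against 5363 CPM in control. IGFBP5, a binding protein among the most abundant transcripts of these cells, had 11363, 11298 and 11372 CPM and 6154, 5897 and 6224 CPM. The groups were far apart beside their small spread, and IGFBP5 fell by 0.90 ± 0.05 (SE) on the log2 scale (adjusted p = 1.24e-16). STC1, a secreted inhibitor of the protease PAPPA, fell by 0.99 ± 0.05 (SE) on the log2 scale (adjusted p = 3.79e-17). Among 23 angiogenic and fibroblast growth factors 9 fell and 3 rose. FGF2 fell by 1.17 ± 0.09 (SE) on the log2 scale (adjusted p = 2.89e-12) and FGF7 fell by 1.05 ± 0.11 (SE) on the log2 scale (adjusted p = 7.4e-09), whereas HGF, the hepatocyte growth factor, rose from 344 to 432 CPM and FGF5 from 11.8 to 29.2 CPM. Of 19 genes of the TNF family, its receptors and genes induced by TNF 7 fell and 1 (0 without siControl replicate 2 or 3 or knockdown replicate 3) rose. TNFAIP6, a hyaluronan-binding protein induced by TNF, fell from 33.2 to 5.77 CPM.

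Of 27 tested collagens 14 fell and 2 (0 without knockdown replicate 1 or 3, 1 without siControl replicate 1, 2 or 3) rose, with a median of -0.42. COL1A1, the main chain of fibrillar collagen I, had 12392, 11914 and 11382 CPM in siControl and 8704, 8692 and 8247 CPM in knockdown libraries, and fell by 0.48 ± 0.05 (SE) on the log2 scale (adjusted p = 9e-10). It remained above its control mean of 2698 CPM. COL7A1, the anchoring fibril collagen, fell by 1.71 ± 0.18 (SE) on the log2 scale (adjusted p = 2.18e-08) and COL8A1 fell by 1.29 ± 0.08 (SE) on the log2 scale (adjusted p = 3.13e-15). The summed level of the list was 30078 to 31766 CPM in siControl and 21731 to 22509.7 CPM in knockdown libraries.

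Of 38 matrix glycoproteins and proteoglycans 17 fell and 3 rose (median -0.40). FN1, fibronectin, had 5669, 5386 and 5059.9 CPM and 2545, 2466 and 2256 CPM, which put every knockdown library below the control mean of 2833 CPM, and fell by 1.15 ± 0.06 (SE) on the log2 scale (adjusted p = 2.62e-17). VCAN, the large proteoglycan versican, fell by 1.25 ± 0.06 (SE) on the log2 scale (adjusted p = 1.54e-17). LUM, a small proteoglycan, had 63.6, 64.8 and 64.7 CPM and 17.1, 25.8 and 33.6 CPM and fell by 1.33 ± 0.20 (SE) on the log2 scale (adjusted p = 1.07e-05). Its lowest library was replicate 1 of the knockdown. CCN4, a matricellular protein, rose from 82.8 to 136 CPM. Among 28 integrins and laminins 9 fell and 4 rose: the common beta subunit ITGB1 fell from 3353 to 2545 CPM, whereas the laminin-binding subunit ITGA6 rose from 46.9 to 98.4 CPM (1.07 ± 0.11, adjusted p = 3.69e-09).

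Adhesion receptors had no common direction, with 4 higher and 4 lower of 20 tested (median 0.02). VCAM1, which binds leukocyte integrins and is a textbook target of NF-kB, had 3.68, 2.81 and 2.14 CPM in siControl and 14.8, 23.1 and 19.5 CPM in knockdown libraries. Every knockdown library was higher, at a level that is still low, and VCAM1 rose by 2.71 ± 0.27 (SE) on the log2 scale (adjusted p = 1.45e-09). THY1, a surface marker of fibroblasts, rose from 399 to 537 CPM, and the cadherin CDH6 fell by 1.76 ± 0.16 (SE) on the log2 scale (adjusted p = 1e-10).

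Of 28 tested AP-1 and immediate early factors 14 fell and 3 (1 without siControl replicate 2 or 3 or knockdown replicate 1) rose (median -0.55). FOS had 27.4, 29.8 and 34.8 CPM in siControl and 9.75, 10.6 and 8.54 CPM in knockdown libraries, with no overlap, and fell by 1.66 ± 0.26 (SE) on the log2 scale (adjusted p = 1.08e-05). JUNB, another AP-1 subunit, fell by 1.35 ± 0.12 (SE) on the log2 scale (adjusted p = 1.6e-10) and EGR1 fell by 1.63 ± 0.09 (SE) on the log2 scale (adjusted p = 8.98e-16). NR4A1, a relative of NR4A2, fell by 2.20 ± 0.39 (SE) on the log2 scale (adjusted p = 8.76e-05). The abundant early response gene IER3 fell from 8870.0 to 4953 CPM.

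Of 23 NF-kB subunits and feedback genes 8 (5 without siControl replicate 1 or knockdown replicate 3) fell and 0 (1 without knockdown replicate 3) rose. ZC3H12A, a ribonuclease that degrades cytokine mRNA, had 159, 161 and 186 CPM and 82.5, 67.0 and 68.3 CPM and fell by 1.22 ± 0.12 (SE) on the log2 scale (adjusted p = 1.84e-09). NFKBIZ, a nuclear cofactor needed for part of the NF-kB targets, fell by 0.99 ± 0.09 (SE) on the log2 scale (adjusted p = 5.86e-11), and the inhibitor NFKBIA fell from 676 to 506 CPM. Of 5 C/EBP factors 3 fell, with CEBPB, a driver of cytokine genes in senescence, at 282, 252 and 236 CPM in siControl and 123, 156 and 133 CPM in knockdown libraries (-0.90 ± 0.10, adjusted p = 1.47e-08). Of 19 tested genes in the list of ERK phosphatases and feedback inhibitors 5 fell and 2 rose. PHLDA1, which is in the list but is not a phosphatase, was among those that fell. The phosphatase DUSP4 fell by 0.92 ± 0.17 (SE) on the log2 scale (adjusted p = 0.000151).

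Of 28 tested RGS proteins and receptors 11 fell and 3 rose (median -0.34). RGS2, which restrains Gq signalling, had 164, 158 and 150.1 CPM and 18.9, 25.6 and 30.4 CPM and fell by 2.65 ± 0.16 (SE) on the log2 scale (adjusted p = 6.13e-15). EDNRB, an endothelin receptor, fell by 2.48 ± 0.26 (SE) on the log2 scale (adjusted p = 6.03e-09), and BDKRB2, a bradykinin receptor, fell from 663 to 398 CPM. GPRC5A, an orphan receptor, rose from 16.7 to 51.9 CPM. The phosphodiesterases PDE4C, PDE4D and PDE4B, which degrade cyclic AMP, are outside the list and fell: PDE4C from 37.7 to 6.41 CPM (-2.57 ± 0.30, adjusted p = 3.31e-08), PDE4D from 27.8 to 5.59 CPM (-2.30 ± 0.29, adjusted p = 1.54e-07) and PDE4B from 33.2 to 12.5 CPM (-1.40 ± 0.26, adjusted p = 0.000135). OXTR, the oxytocin receptor, had 4.77, 5.06 and 3.74 CPM in siControl and 31.7, 25.9 and 28.4 CPM in knockdown libraries and rose by 2.65 ± 0.22 (SE) on the log2 scale (adjusted p = 2.16e-11). Its control mean was 51.9 CPM.

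Transcripts of HLA class I heavy chains and of their shared light chain fell. HLA-B had 1557, 1759 and 1766 CPM in siControl and 482, 595 and 619 CPM in knockdown libraries, and fell by 1.58 ± 0.08 (SE) on the log2 scale (adjusted p = 4.58e-14). HLA-C fell by 1.29 ± 0.14 (SE) on the log2 scale (adjusted p = 2.66e-08). B2M, the light chain that all class I molecules share, had 7183, 7735 and 7362 CPM and 3239, 3789 and 3484 CPM and fell by 1.08 ± 0.06 (SE) on the log2 scale (adjusted p = 1.55e-15). In these 3 genes every knockdown library was below every siControl library and all stayed above their control means of 74.1, 23.4 and 987 CPM. HLA genes are near-identical copies and differ between people, so the split of tags among them, HLA-B and HLA-C included, is uncertain, which does not touch B2M.

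Most other members of the pathway were not called. Of 18 tested members of the list 6 fell, 1 rose and 11 were not called. The peptide transporter gene TAP1 had 57.5, 49.6 and 51.7 CPM and 44.9, 52.5 and 34.0 CPM and a change of -0.28 ± 0.17 (adjusted p = 0.315), and PSMB10, a subunit of the immunoproteasome, rose from 14.0 to 25.9 CPM. Of 36 tested interferon-stimulated genes 8 fell (13 with limma-voom) and 3 rose (median -0.46). IFI27 had 189, 222 and 205 CPM and 23.2, 31.8 and 32.3 CPM and fell by 2.81 ± 0.16 (SE) on the log2 scale (adjusted p = 1.51e-15). IFI6, a mitochondrial protein against cell death, fell by 1.45 ± 0.07 (SE) on the log2 scale (adjusted p = 2.78e-18), and BST2, which tethers viruses to the membrane, fell by 3.30 ± 0.43 (SE) on the log2 scale (adjusted p = 5.28e-07). GBP1, a guanylate-binding protein, rose from 141 to 224 CPM. Of 17 nucleic acid sensors, IRFs and STATs 1 fell and 1 (0 without knockdown replicate 1 or 2, 2 without knockdown replicate 3) rose. STING1, an adaptor of cytosolic DNA sensing, was the one that fell, from 36.1 to 18.4 CPM.

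Of 39 tested genes of glycolysis and the response to low oxygen 25 fell and 2 (1 without siControl replicate 1, 2 or 3 or knockdown replicate 1 or 2) rose (median -0.47), against 8.06% of all genes called lower. Abundant genes were called more often, with 408 lower of 2148 genes of at least 100 CPM. HIF1A, the oxygen-regulated transcription factor, had 692, 662 and 624 CPM in siControl and 282, 291 and 281 CPM in knockdown libraries and a control mean of 250.5 CPM, and fell by 1.21 ± 0.07 (SE) on the log2 scale (adjusted p = 6.15e-15). EPAS1, which encodes the related factor HIF-2 alpha, rose from 148 to 179 CPM (adjusted p = 0.0133) but lost the call without knockdown replicate 2 (adjusted p = 0.055). CA12, a carbonic anhydrase, fell by 1.39 ± 0.19 (SE) on the log2 scale (adjusted p = 6.69e-07) and PFKFB4, which sets a regulator of glycolytic flux, fell by 1.34 ± 0.18 (SE) on the log2 scale (adjusted p = 1.08e-06).

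PGK1, an enzyme of glycolysis, had 762, 728 and 736 CPM and 508, 459 and 508 CPM and fell by 0.59 ± 0.06 (SE) on the log2 scale (adjusted p = 2.81e-09), and PFKP, a phosphofructokinase, fell from 180.5 to 121 CPM. GAPDH, at 3311, 3392 and 3519 CPM in siControl and 3057, 3073 and 3392 CPM in knockdown libraries, had a change of -0.10 ± 0.05 (adjusted p = 0.187).

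**Figure D3:**
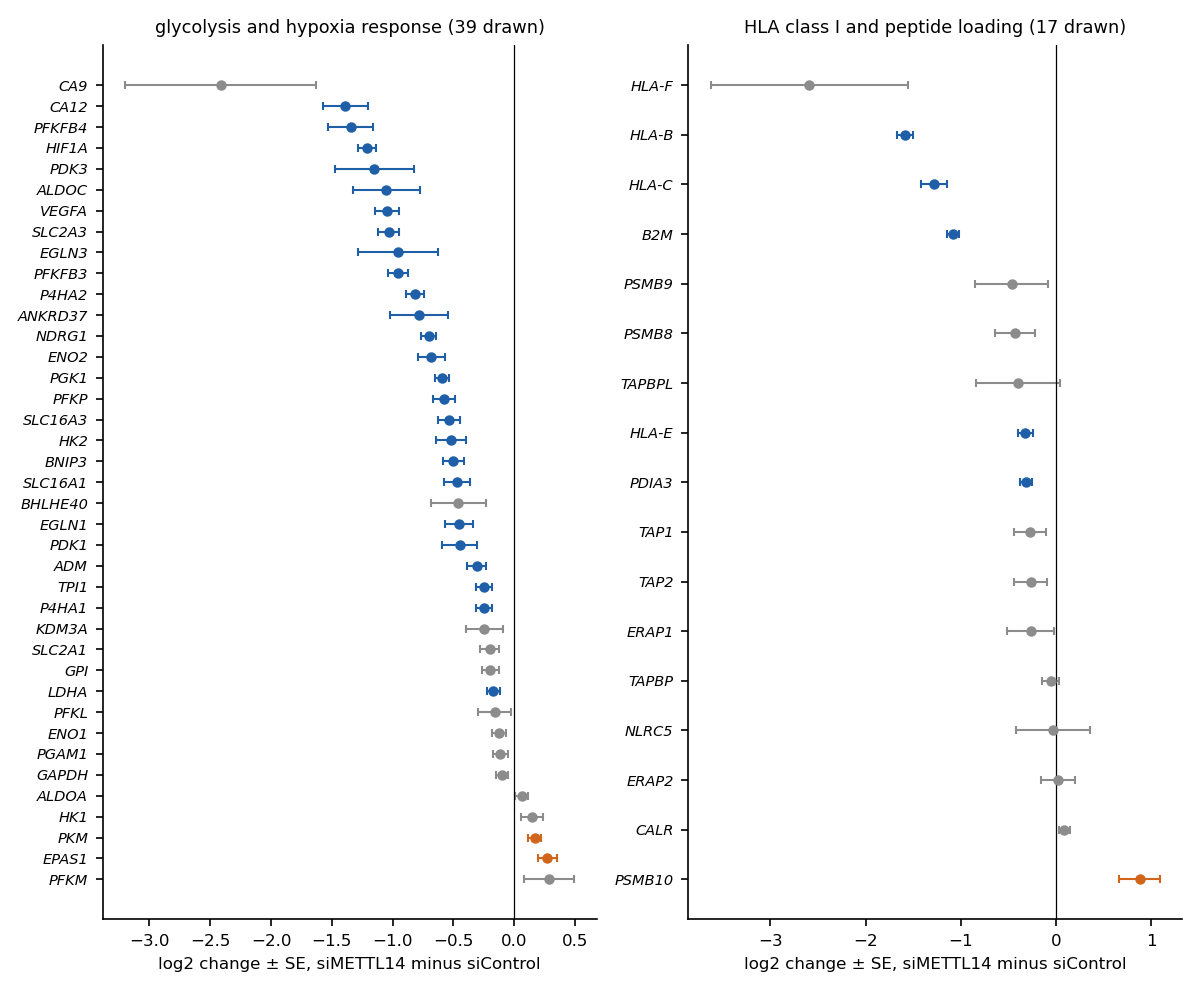
Log2 change with SE (horizontal axis) of each tested member of the glycolysis and hypoxia list (left, 39 genes) and the HLA class I list (right, 17 of its 18 genes), blue where called lower, orange where called higher and grey where not called. HIF1A, CA12 and PFKFB4 fell by more than 1 and GAPDH lies near 0; HLA-B, HLA-C and B2M fell by more than 1 and PSMB10 rose.

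NAMPT, the enzyme that salvages nicotinamide for NAD, had 910.1, 867 and 878 CPM in siControl and 202, 245 and 228 CPM in knockdown libraries and fell by 1.97 ± 0.08 (SE) on the log2 scale (adjusted p = 4.98e-20). FTH1, the heavy chain of ferritin, fell by 0.96 ± 0.05 (SE) on the log2 scale (adjusted p = 2.62e-17), with the caution that ferritin has many processed copies in the genome. Of 30 tested ATF4 targets and genes of amino acid supply 13 fell and 1 rose (median -0.51). PSAT1, of serine synthesis, had 26.0, 23.6 and 28.2 CPM and 7.11, 10.5 and 9.68 CPM and fell by 1.50 ± 0.25 (SE) on the log2 scale (adjusted p = 3.19e-05). SLC7A5, a carrier of large amino acids, fell by 1.15 ± 0.12 (SE) on the log2 scale (adjusted p = 5.19e-09). Of 203 tested solute carriers 26 fell and 4 (8 without knockdown replicate 1) rose (median -0.13), SLC44A1, a choline carrier, by the most among those above 10 CPM (-1.28 ± 0.13, adjusted p = 1.32e-09). ACSL4, which activates arachidonic acid, fell from 498 to 218 CPM (-1.19 ± 0.08, adjusted p = 2.89e-13).

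Many genes of mitosis rose, and their summed level stayed far below control. Of 67 tested members 29 rose and 0 (1 without knockdown replicate 2) fell, with a median of 0.86. Their summed level was 733 to 766 CPM in siControl, 1122 to 1146 CPM in knockdown and a mean of 6591 CPM in control libraries. In bulk RNA, more cells in division and more RNA per cell cannot be told apart. MKI67, the proliferation marker, had 9.54, 14.1 and 7.31 CPM in siControl and 38.4, 44.9 and 39.6 CPM in knockdown libraries, a control mean of 284 CPM, and rose by 2.00 ± 0.17 (SE) on the log2 scale (adjusted p = 1.4e-10). ASPM, a protein of the spindle pole, had 5.86, 7.49 and 8.20 CPM and 25.8, 28.2 and 23.1 CPM and rose by 1.85 ± 0.18 (SE) on the log2 scale (adjusted p = 9.47e-10). TOP2A, the topoisomerase of mitotic chromosomes, rose by 0.93 ± 0.09 (SE) on the log2 scale (adjusted p = 1.41e-09). MYBL2, a transcription factor of late cell cycle genes, rose by 2.36 ± 0.34 (SE) on the log2 scale (adjusted p = 3.47e-06), at 2.32, 3.37 and 1.78 CPM and 14.8, 8.03 and 15.8 CPM.

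Promoters of MKI67 and ASPM are shown since the cell cycle homology region (TTTGAA) and the CCAAT box are the motifs known from genes of mitosis, and both hold them. They are again the 150 bases before the RefSeq start on the gene's strand (GRCh38.p14), MKI67 at chr10:128126424-128126573, minus strand and ASPM at chr1:197146670-197146819, minus strand. Capitals mark both motifs on either strand, and in MKI67 1 of each share a base. MYBL2, which rose more than MKI67 and ASPM, held neither motif in its window of 300 bases.
MKI67: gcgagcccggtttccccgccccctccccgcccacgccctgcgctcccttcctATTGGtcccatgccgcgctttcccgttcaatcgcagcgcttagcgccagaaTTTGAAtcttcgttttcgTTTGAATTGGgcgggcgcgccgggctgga
ASPM: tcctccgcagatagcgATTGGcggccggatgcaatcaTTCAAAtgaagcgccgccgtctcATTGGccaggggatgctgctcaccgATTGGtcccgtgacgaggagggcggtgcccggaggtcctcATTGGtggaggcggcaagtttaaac

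TTTGAA was in 9.37% of all promoters of tested genes, 25 of 97 (25.8%) of those that rose at least 2-fold and 15 of 163 (9.20%) of those that fell as much. CCAAT was in 38.2%, 50 of 97 (51.5%) and 63 of 163 (38.7%). An E2F motif (TTTCCCGC or TTTGGCGC) was in 3.85%, 8 of 97 (8.25%) and 4 of 163 (2.45%).

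Of 54 genes of DNA replication and E2F activity 9 rose and 1 fell (median 0.28), with CDC6, a licensing factor, from 4.72 to 12.1 CPM (1.34 ± 0.29, adjusted p = 0.000822). Of 38 genes of homologous recombination and Fanconi repair 1 (0 without knockdown replicate 2 or 3, 2 without siControl replicate 2 or knockdown replicate 1) rose and 0 fell. Among 19 CDK inhibitors, cyclins and partners 6 rose and 3 fell. CCND2, a D cyclin, had 165, 176 and 177 CPM and 392, 422 and 363 CPM, against 12.4 CPM in control, and rose by 1.18 ± 0.09 (SE) on the log2 scale (adjusted p = 3.8e-11). CDK6 rose from 511 to 779.5 CPM and CDK2 fell from 299 to 152 CPM (-0.98 ± 0.09, adjusted p = 7.17e-11), below a control mean of 765 CPM.

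The inhibitor CDKN1A (p21) had 1788, 1676 and 1848 CPM and 1441, 1294 and 1404 CPM and fell by 0.36 ± 0.06 (SE) on the log2 scale (adjusted p = 1.13e-05). CDKN2A, whose locus encodes p16 and ARF, had 156, 174 and 170.2 CPM in siControl and 133, 179 and 180.4 CPM in knockdown libraries. These ranges overlapped and CDKN2A was not called (-0.02 ± 0.11, adjusted p = 0.945). CDKN2B (p15) fell from 49.4 to 32.9 CPM (adjusted p = 0.0237) but lost the call without siControl replicate 2 (adjusted p = 0.145), without knockdown replicate 1 (adjusted p = 0.128), without knockdown replicate 3 (adjusted p = 0.111).

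HMGA2, an architectural protein, had 684, 667 and 684 CPM in siControl, 939.6, 985 and 1022 CPM in knockdown and a mean of 1614 CPM in control libraries, and rose by 0.53 ± 0.06 (SE) on the log2 scale (adjusted p = 5.48e-09). Of 20 genes of high mobility group and heterochromatin proteins 6 (2 without siControl replicate 1) rose and 0 fell. LMNB1, the B-type lamin whose loss marks senescence, had 6.67, 5.99 and 4.99 CPM and 10.2, 9.72 and 8.37 CPM, an adjusted p of 0.042 and a change of 0.66 ± 0.23 that lost the call with no low-count filter (adjusted p = 0.0712), in a fit of the 6 libraries alone (adjusted p = 0.19), with DESeq2 (adjusted p = 0.0513), with limma-voom (adjusted p = 0.191), without siControl replicate 2 (adjusted p = 0.0863), without siControl replicate 3 (adjusted p = 0.15), without knockdown replicate 1 (adjusted p = 0.113), without knockdown replicate 2 (adjusted p = 0.101). Of 14 lamina genes 5 (3 without siControl replicate 1, 2 or 3 or knockdown replicate 2) rose and 0 fell. SYNE1, which links the nucleus to the cytoskeleton, rose from 187 to 281 CPM (0.59 ± 0.09, adjusted p = 5.46e-06).

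Of 32 tested contractile genes and targets of SRF and YAP 14 rose and 2 fell (median 0.26), beside 7.47% of all genes called higher. Among 2148 genes of at least 100 CPM 408 were called higher. VCL, vinculin, had 305, 327 and 295 CPM in siControl and 509, 454 and 496 CPM in knockdown libraries and rose by 0.66 ± 0.07 (SE) on the log2 scale (adjusted p = 2.98e-09). ZYX, zyxin of focal adhesions, rose by 0.67 ± 0.08 (SE) on the log2 scale (adjusted p = 3.55e-08), and ANKRD1, a YAP target, rose by 1.07 ± 0.17 (SE) on the log2 scale (adjusted p = 1.08e-05). ACTA2, smooth muscle actin, went the other way from 550.2 to 447 CPM (-0.30 ± 0.07, adjusted p = 0.000936). MYOCD, the cofactor of SRF in smooth muscle, is outside the list and fell from 474 to 182 CPM (-1.38 ± 0.08, adjusted p = 1.58e-15).

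Of 26 heat shock proteins and chaperones 10 rose and 0 fell (median 0.25). HSP90AA1 had 1197, 1180.1 and 1235 CPM and 1644, 1598 and 1612 CPM, still below its control mean of 2857 CPM, and rose by 0.43 ± 0.05 (SE) on the log2 scale (adjusted p = 1.58e-07). HSPA8, the constitutive HSP70, rose by 0.49 ± 0.06 (SE) on the log2 scale (adjusted p = 1.08e-07). Of 23 genes of the unfolded protein response 1 (2 without knockdown replicate 2) rose and 2 (1 without siControl replicate 1 or 2 or knockdown replicate 3) fell. SDF2L1, a chaperone component of the endoplasmic reticulum, rose from 36.8 to 66.3 CPM (0.85 ± 0.14, adjusted p = 3.14e-05), and PDIA6, a disulfide isomerase there, fell from 1032 to 772 CPM.

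Most genes of ribosomes and proteasomes were not called, and the counts depended on single libraries. Of 76 cytosolic ribosomal protein genes 12 (4 without siControl replicate 2 or knockdown replicate 1, 6 without siControl replicate 1 or knockdown replicate 3) rose and 1 (0 without siControl replicate 1 or 3 or knockdown replicate 1, 2 without knockdown replicate 3) fell (median 0.13); these genes have many near-identical copies. RPS6, of the small subunit, rose from 274 to 344 CPM (0.33 ± 0.07, adjusted p = 0.000631). Of 39 ribosome assembly factors 10 (6 without siControl replicate 2 or knockdown replicate 3) rose and 0 fell (median 0.25). DDX21, a nucleolar helicase, rose from 210.2 to 264 CPM. Of 45 proteasome genes 9 (5 without siControl replicate 3 or knockdown replicate 1) rose and 1 (0 without siControl replicate 1 or 3 or knockdown replicate 1) fell, and PSMD2 rose from 423 to 512 CPM (0.27 ± 0.06, adjusted p = 0.00166).

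Of 24 genes of cholesterol synthesis 7 (4 without siControl replicate 1) rose and 0 fell (median 0.32). ACAT2, which makes the acetoacetyl-CoA that the pathway starts from, had 7.22, 9.55 and 6.06 CPM in siControl and 21.7, 15.3 and 21.8 CPM in knockdown libraries, with no overlap, and rose by 1.36 ± 0.25 (SE) on the log2 scale (adjusted p = 8.87e-05). Genes of fatty acids and lipid storage were split, with 4 higher and 5 lower of 25.

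Of 33 NRF2 targets and antioxidants 6 rose and 8 fell, TXNRD1 from 99.1 to 140.1 CPM and AKR1C1 from 113 to 61.4 CPM. Of 45 lysosomal enzymes and membrane proteins 9 fell and 2 rose. CTSS, a cathepsin of antigen processing, had 131, 132 and 153 CPM and 55.5, 42.4 and 54.3 CPM and fell by 1.45 ± 0.12 (SE) on the log2 scale (adjusted p = 5.21e-11), whereas CTSC, which activates serine proteases, rose from 205 to 336 CPM (0.72 ± 0.08, adjusted p = 5.73e-09). GLB1, the gene of senescence-associated beta-galactosidase, fell from 105 to 77.0 CPM (adjusted p = 0.00638) but lost the call without siControl replicate 1 (adjusted p = 0.0649), without knockdown replicate 3 (adjusted p = 0.0856).

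Guidance molecules of axons and vessels changed in both directions, 8 (5 without siControl replicate 1) lower and 3 higher of 43. Of all tested genes 8.06% were called lower and 7.47% higher. SEMA6A, a membrane semaphorin, had 5.99, 8.43 and 9.98 CPM in siControl and 43.1, 32.6 and 35.8 CPM in knockdown libraries and rose by 2.20 ± 0.21 (SE) on the log2 scale (adjusted p = 5.61e-10). SLIT2, a secreted ligand of ROBO receptors, rose by 2.23 ± 0.32 (SE) on the log2 scale (adjusted p = 2.84e-06), and its receptor ROBO2 fell by 1.87 ± 0.17 (SE) on the log2 scale (adjusted p = 1.81e-10). Among 32 genes of the WNT pathway 4 rose and 4 (2 without knockdown replicate 1) fell. SFRP1, a secreted WNT antagonist, had 773, 734 and 759 CPM and 1635, 1465 and 1429 CPM and rose by 1.00 ± 0.06 (SE) on the log2 scale (adjusted p = 8.01e-16), while WNT5A fell from 1438 to 978 CPM. Among 14 genes of Notch and ID proteins 2 rose and 3 (1 without siControl replicate 2) fell, and ID3, an inhibitor of bHLH factors, fell by 1.63 ± 0.18 (SE) on the log2 scale (adjusted p = 2.05e-07).

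Some further lists were called in part or not at all, beside 7.47% of all tested genes called higher and 8.06% called lower. Of 16 tested HOX genes 0 rose and 0 (1 without siControl replicate 3) fell in edgeR's test, with 3 at an unadjusted p under 0.05, while DESeq2 called 0 in each direction and limma-voom 1 lower. Of 26 polycomb genes 2 fell and 0 rose. Of 88 genes of the respiratory chain 7 (2 without knockdown replicate 2, 3 without siControl replicate 2 or 3 or knockdown replicate 3, 4 without siControl replicate 1) fell and 3 (1 without siControl replicate 2) rose, but 2 fell and 5 rose with upper-quartile factors. Of 41 splicing factors 5 (3 without siControl replicate 1) rose and 3 (0 without siControl replicate 3 or knockdown replicate 3, 1 without siControl replicate 2) fell, with 0 lower under upper-quartile factors, and of 28 BCL2 family genes and caspases 3 rose and 3 (1 without siControl replicate 1) fell. MCL1, a short-lived guard against apoptosis, had 651, 699 and 706 CPM and 364, 381 and 449.6 CPM and fell by 0.78 ± 0.08 (SE) on the log2 scale (adjusted p = 7.69e-10). BCL2L1, its relative, rose from 27.2 to 41.7 CPM (0.62 ± 0.14, adjusted p = 0.00212).

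**Figure D4:**
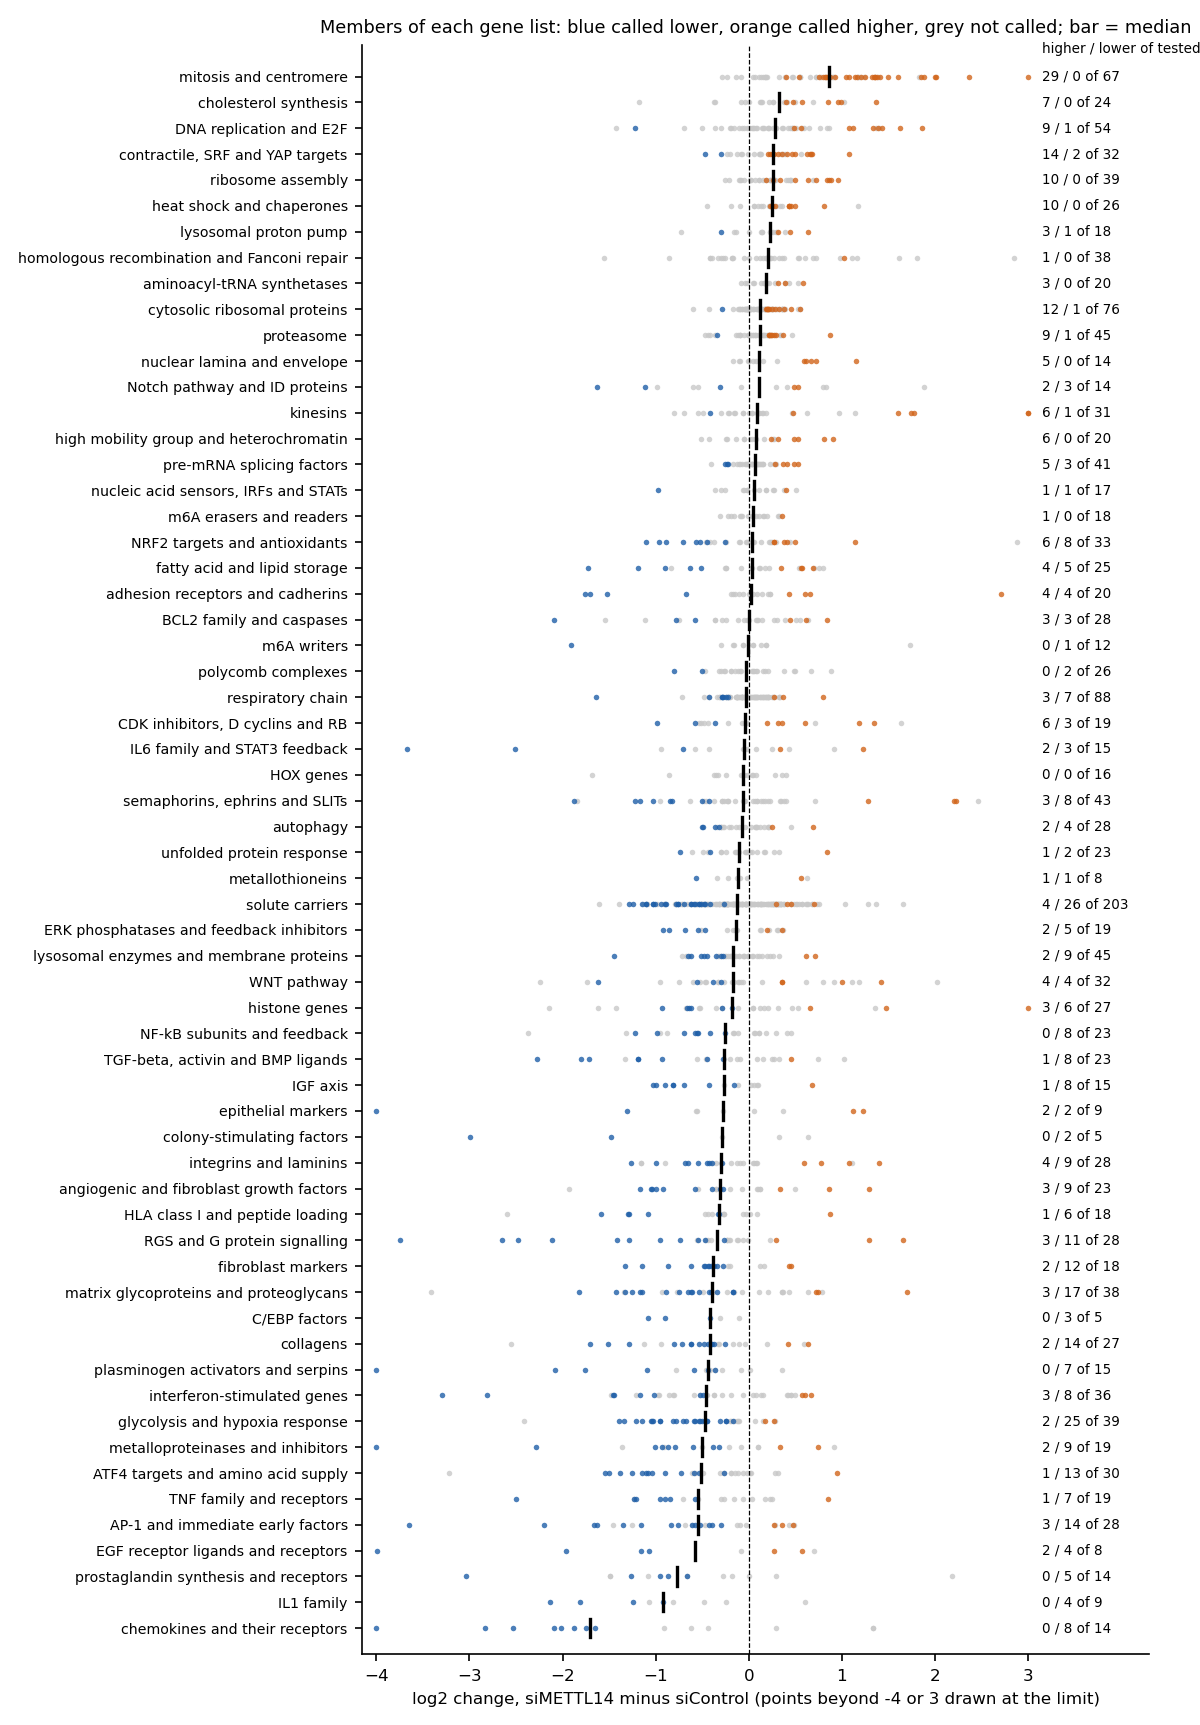
Log2 change (horizontal axis) of every tested member of the gene lists with at least 5 tested members, 1 list left undrawn, 1 row a list, ordered by median (black bar); points are genes, blue where called lower, orange where called higher and grey where not called, the dashed line is the median of all tested genes, and numbers give members called higher and lower of those tested. Among the lists drawn, chemokines have the lowest median (-1.70) and genes of mitosis the highest (0.86).

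Among the largest rises outside these groups, ELOVL2, which lengthens polyunsaturated fatty acids, had 12.1, 10.5 and 8.56 CPM in siControl and 46.5, 42.0 and 35.8 CPM in knockdown libraries and rose by 1.98 ± 0.18 (SE) on the log2 scale (adjusted p = 2.63e-10). NAV2, a neuron navigator protein, rose by 1.81 ± 0.16 (SE) on the log2 scale (adjusted p = 1.3e-10). AKAP2, an anchor of protein kinase A whose transcripts overlap those of a neighbouring gene, had 114, 236 and 153 CPM and 517, 687 and 517 CPM and rose by 1.78 ± 0.22 (SE) on the log2 scale (adjusted p = 0.000204). GFRA1, a receptor of GDNF, rose from 17.7 to 57.2 CPM while its ligand GDNF fell from 195 to 37.2 CPM.

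Some called genes had no count in a whole group. TROAP, a spindle protein, had 0 counts in siControl and 39 in knockdown libraries (1.83, 2.47 and 2.30 CPM), at least 13.6-fold higher if the group without counts is set at 3 counts in all (adjusted p = 0.00024). TMEFF1, a membrane protein whose tags may be shared with an overlapping readthrough gene, had 0 and 112 counts (2.44, 6.48 and 9.52 CPM), at least 39.0-fold higher (adjusted p = 0.000102). BCL11B, a zinc finger transcription factor, had 54 counts in siControl (3.54, 1.12 and 3.92 CPM) and 0 in knockdown libraries, at least 17.2-fold lower (adjusted p = 0.00242). These bounds cover counting error only.

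Of 301 tested long intergenic non-coding RNAs 7 rose and 8 fell. NEAT1, the scaffold of nuclear paraspeckles, had 5682, 5825 and 5585 CPM in siControl, 4233, 3752 and 3913 CPM in knockdown and a mean of 186 CPM in control libraries, and fell by 0.52 ± 0.07 (SE) on the log2 scale (adjusted p = 4.75e-06). CYTOR, a cytoplasmic non-coding RNA, rose from 379 to 681 CPM (0.85 ± 0.08, adjusted p = 5.71e-10), and has a near-identical copy with which its tags may be split.

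Markers of cell types were read in all 6 libraries. Fibroblast markers were abundant, with 18 of 19 tested and a summed level of 33595 to 35724 CPM in siControl and 25171 to 25724 CPM in knockdown libraries. Of these 12 fell, most of them matrix genes, and 2 rose, THY1 and VIM. Epithelial markers summed to 67.9 to 86.4 CPM in siControl and 96.6 to 112 CPM in knockdown libraries over 9 tested of 18 members. KRT18 rose from 21.4 to 46.8 CPM (1.12 ± 0.14, adjusted p = 1.72e-07) and KRT19 from 10.2 to 24.2 CPM, whereas ELF3, an epithelial transcription factor, fell from 5.21 to 0.216 CPM and CLDN7, a claudin, from 7.62 to 3.05 CPM (adjusted p = 0.0321, and 0.0567 to 0.115 with 1 library left out). No count of CDH1, KRT5, KRT14, ESRP1, ESRP2 or GRHL2 was found in the 6 libraries. Endothelial markers summed to 37.3 to 39.0 and 41.7 to 45.7 CPM over 4 tested members, with CDH5, ERG and KDR at 0. TEK was the most abundant of them, with 1096 counts in the 6 libraries together, against 243 of ROBO4 and 97 of TIE1. Of the leukocyte markers, with PTPRC, CD3E and LYZ at 0, CD68 alone passed the filter, with 521 counts. The part of these markers in the results was not tested.

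**Figure D5:**
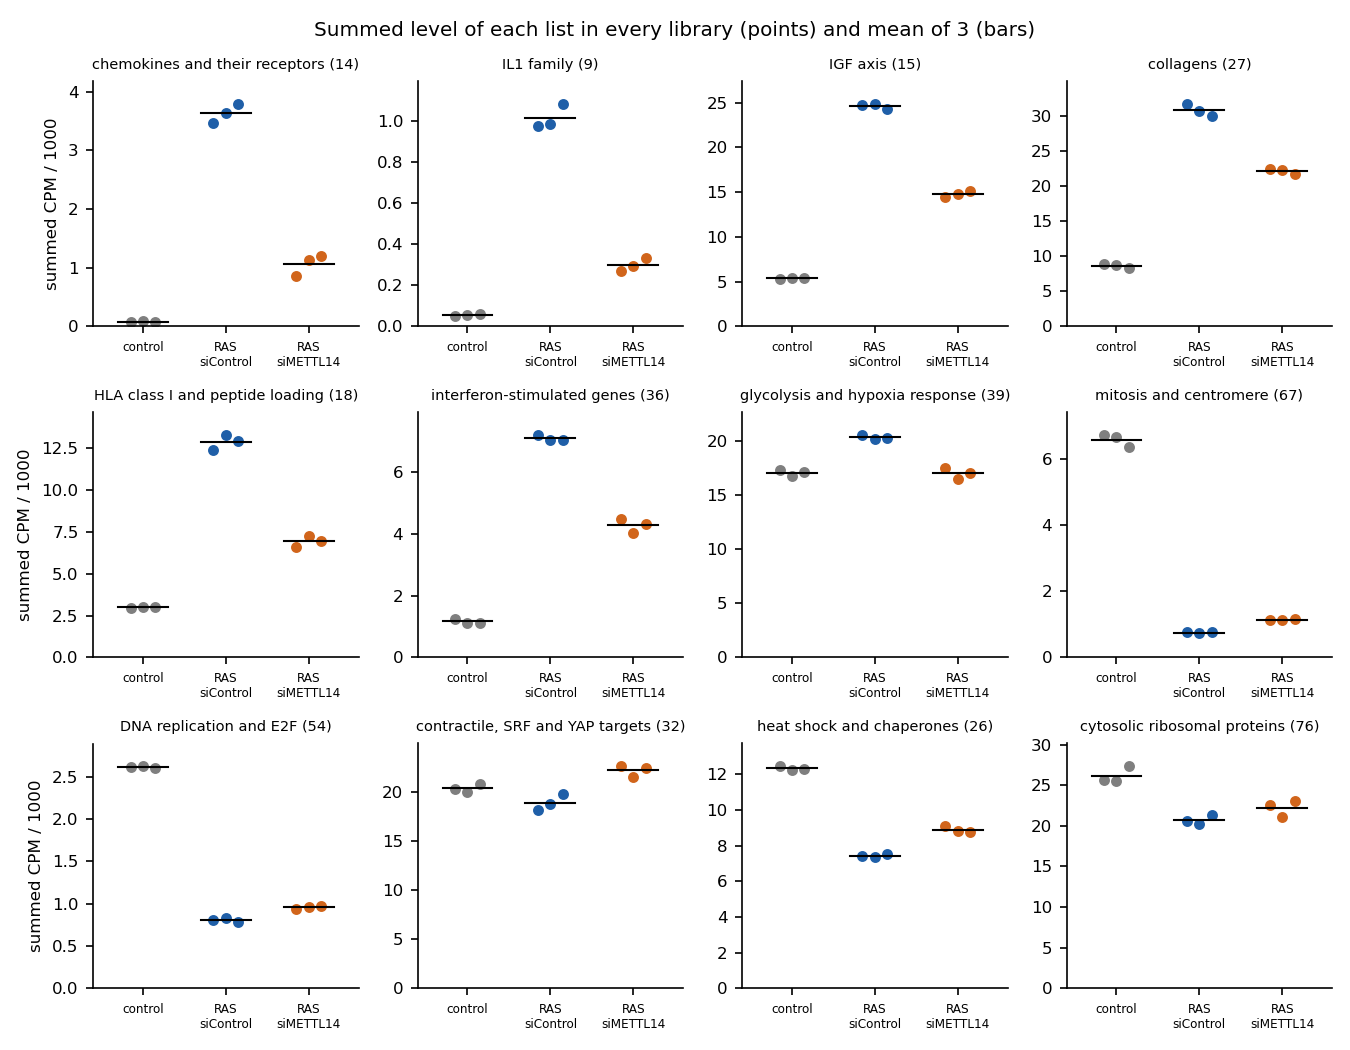
Summed normalised CPM divided by 1000 (vertical axis from 0) of the tested members of 12 gene lists in control, RAS siControl and RAS siMETTL14 libraries; points are libraries, bars the mean of 3, and the number of genes is in each title. The mean of the knockdown libraries lies between those of the other groups for chemokines, the IL1 family, the IGF axis, collagens, HLA class I, interferon-stimulated genes, mitosis, replication, chaperones and ribosomal proteins (whose siControl and knockdown libraries overlap), above both for contractile genes, and close to control for glycolysis and hypoxia.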

How the data were processed

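The deposited table holds whole-number counts per gene for 15 3′ end (QuantSeq) RNA libraries of IMR90 cells, in 5 groups of 3. The tools behind these counts include RSEM 1.2.12 and Bowtie2, with hg19 as the build, per the submitters' processing notes, which give no order of steps. RSEM can return fractions; rounding by the authors, the gene annotation and the strand setting are not stated there. Gene symbols were taken from a table of Ensembl gene names, which matched 52301 of 57736 IDs (90.6%, with 99.2% of the counts). Promoter sequences came from RefSeq (GRCh38.p14).

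All 15 libraries entered 1 edgeR model (edgeR 4.0.16, limma 3.58.1, R 4.3.3) with a mean per group, TMM factors, filterByExpr and the robust two-sided quasi-likelihood F test with 10 residual degrees of freedom. It tested 13516 genes, which held 99.8% of the counts, at a biological coefficient of variation of 16.7%. P-values were adjusted by Benjamini-Hochberg over all tested genes, and the SE is the log2 change divided by the square root of F. The script was tested on simulated data. Deviations from the group means of same-numbered knockdown and siControl libraries correlated at 0.0126 to 0.0237. Those of differently numbered libraries correlated at -0.0409 to 0.0215. No block was used, though so few libraries cannot exclude a pairing by replicate number.

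Genes were named by a rule: METTL14 and METTL3, the 15 largest rises and the 15 largest falls of at least 10 CPM without overlap, up to 3 called members of each of 64 gene lists, the 5 most abundant genes and 13 senescence genes; not all are printed, and some items are not reported here. The comparison, the lists (9 symbols unmatched) and the rule were chosen with earlier results of these data known. Alternatives were DESeq2 1.42.0, limma-voom, other scalings and filters, a fit of the 6 libraries alone, a replicate block and leaving out each library. Counting limits and floors cover counting error only.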

Additional observations from a re-analysis of the deposited data

How the results depend on the processing

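The 1010 genes called higher and 1090 called lower became 1044 and 1177 with DESeq2, 958 and 1216 with limma-voom, 1073 and 1073 without the filter on low counts, and 843 and 1006 in a fit of the 6 libraries alone. RLE factors gave 993 and 1113, and upper-quartile factors 1168 and 970, which moved the share of higher calls from 48.1% to 54.6%. With a mean of at least 5 CPM required, 121 genes rather than 188 were called at least 2-fold higher, since fewer low genes were tested. Leaving out 1 library gave 806 to 944 genes higher and 827 to 942 lower, of which 172 to 196 and 285 to 310 were at least 2-fold. A pairing by replicate number was neither clear nor excluded, and a replicate block gave 1079 higher and 1135 lower.

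CDKN2A, not called in any of these fits, changed sign with upper-quartile factors (0.0131), and its log2 change ran from -0.0855 to 0.111 with 1 library left out. METTL3, likewise never called, ran from -0.0376 to 0.670. The cause was not tested. Counts of calls in single lists moved by over 1.5 times in places: rises of heterochromatin and high mobility group genes from 6 to 3 and of lamina genes from 5 to 3 with limma-voom, and rises of ribosomal protein genes from 12 to 7 in the fit of the 6 libraries alone. Of 64 list medians 16 changed sign under some setting, with the largest of these at -0.28 as reported (epithelial markers, 9 of 18 of which were tested).

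Of genes below 1 CPM 3.29% were called, against 38.0% of those of at least 100 CPM. The siRNA and the lentiviral vector cannot be told apart, since the vector is named only for the knockdown columns.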
